A study of Mus musculus with 16 samples.

Results

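The loss of Men1 on top of the loss of Daxx was examined in the injured mouse pancreas by comparing 4 DMC libraries with 4 DC libraries, 8 of the 16 libraries of the study, which were taken by their titles. DC mice had the genotype Daxxfl/fl with the Pdx1-Cre transgene, and DMC mice had Daxxfl/fl Men1fl/fl with the same transgene, so floxed Daxx alleles and Cre were common to both groups and in the labels only the floxed Men1 alleles set them apart. The other groups were wild type mice (WT), whose label names no Cre, and Men1fl/fl mice with Pdx1-Cre (MC), again with 4 libraries each. All mice were adults of 6 to 10 weeks with chronic pancreatitis induced by caerulein, an analogue of the hormone cholecystokinin that overstimulates the enzyme-secreting acinar cells. It was injected intraperitoneally at 50 ug/kg, in 4 hourly injections on 3 days a week for 3 weeks, and tissue was taken 5 days after the last injection. Pdx1-Cre acts in the epithelium that arises from the pancreatic bud, so stromal, vascular and immune cells of the whole pancreas keep both genes. Pdx1 is also active in the neighbouring duodenum and distal stomach. What was measured is total RNA of whole tissue, in which fewer cells of a type and less RNA per cell cannot be told apart.

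Menin, the product of Men1, is a scaffold that ties transcription factors to chromatin complexes, among them the MLL histone H3 lysine 4 methyltransferases. It is best known in the pancreas as a tumour suppressor of the endocrine islet. DAXX is a chaperone that works with ATRX to place the histone variant H3.3 into heterochromatin, and the genes for menin, DAXX and ATRX are the ones most often mutated in human pancreatic neuroendocrine tumours. After caerulein injury acinar cells can lose their enzyme programme and take on duct-like or stomach-like features before they recover.

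The libraries held 14117277 to 23728309 reads in DC and 18968266 to 22473478 in DMC, as recovered from the normalized values. The defining pancreas genes were present in all 8 libraries. The acinar protease Prss2 ranged from 206142 to 622176 normalized counts, the duct keratin Krt19 from 301.6 to 752.9 and the beta cell gene Ins2 from 3763 to 51193. The labels give no sex. The Y-linked genes were high in 1 of 4 DC libraries (replicate 1) and in 2 of 4 DMC libraries (replicates 1 and 3). A clock gene level was formed as a difference of mean log2 values, with Dbp, Tef, Per3, Nr1d1 and Nr1d2 counted up and Nfil3, Npas2 and Arntl counted down. It was 2.13 to 3.59 in DC. In DMC it was 1.34, 3.46, -0.68 and -0.18 in replicates 1 to 4, so DMC replicate 2 alone lay in the DC range. The time of day at collection is not in the labels.

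Men1 transcripts fell to 34.8% of their DC level in DMC, and the 2 groups did not overlap. Men1 (ENSMUSG00000024947.16, chr19:6334979-6340891, GRCm38) had 397, 481, 508 and 541 normalized counts in DC replicates 1 to 4 and 157, 175, 161 and 178 in DMC. Each DMC library was below each DC library. The log2 difference was -1.51 ± 0.13 (SE, limma adjusted p = 3.51e-05 over all genes, exact permutation p = 0.0286, two-sided, the smallest that 70 assignments of 4 against 4 allow). Daxx (ENSMUSG00000002307.15, chr17:33909414-33915590) had 224, 212, 245 and 212 in DC and 160.3, 225, 179 and 162 in DMC. With both groups floxed, DMC averaged 81.3% of DC, 3 DMC libraries lay below all of DC and DMC replicate 2 lay within its range, and the difference did not pass (log2 -0.31 ± 0.16, limma adjusted p = 0.433, exact permutation p = 0.114). Reads were summed over each gene, so excision of the floxed exons cannot be read from these values.

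Of the 18 genes of the menin and MLL complexes that were tested, 1 fell, Men1 itself, and none of the other 17 passed. Their median log2 difference was -0.22, with 14 negative, against a median of 0.00269 and 50.6% positive over all 14220 genes. Among the 17 genes of the DAXX, ATRX and H3.3 pathway 0 passed, where 0.534% of all genes did, with a median of 0.01. Atrx averaged 2804 ± 178 normalized counts in DC and 2675 ± 322 in DMC (SD, n = 4 each), and H3f3b, an H3.3 gene, 2851 ± 433 and 2868 ± 339.7. The cyclin-dependent kinase inhibitors and other menin-bound targets counted 0 of 21 past the threshold. Cdkn1b, which encodes p27 and is a known menin target, differed by -0.06 ± 0.13 on the log2 scale (limma adjusted p = 0.91), and Cdkn2c, which encodes p18, -0.37 ± 0.19 (limma adjusted p = 0.423); both were picked after their values were seen.

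**Figure D1:**
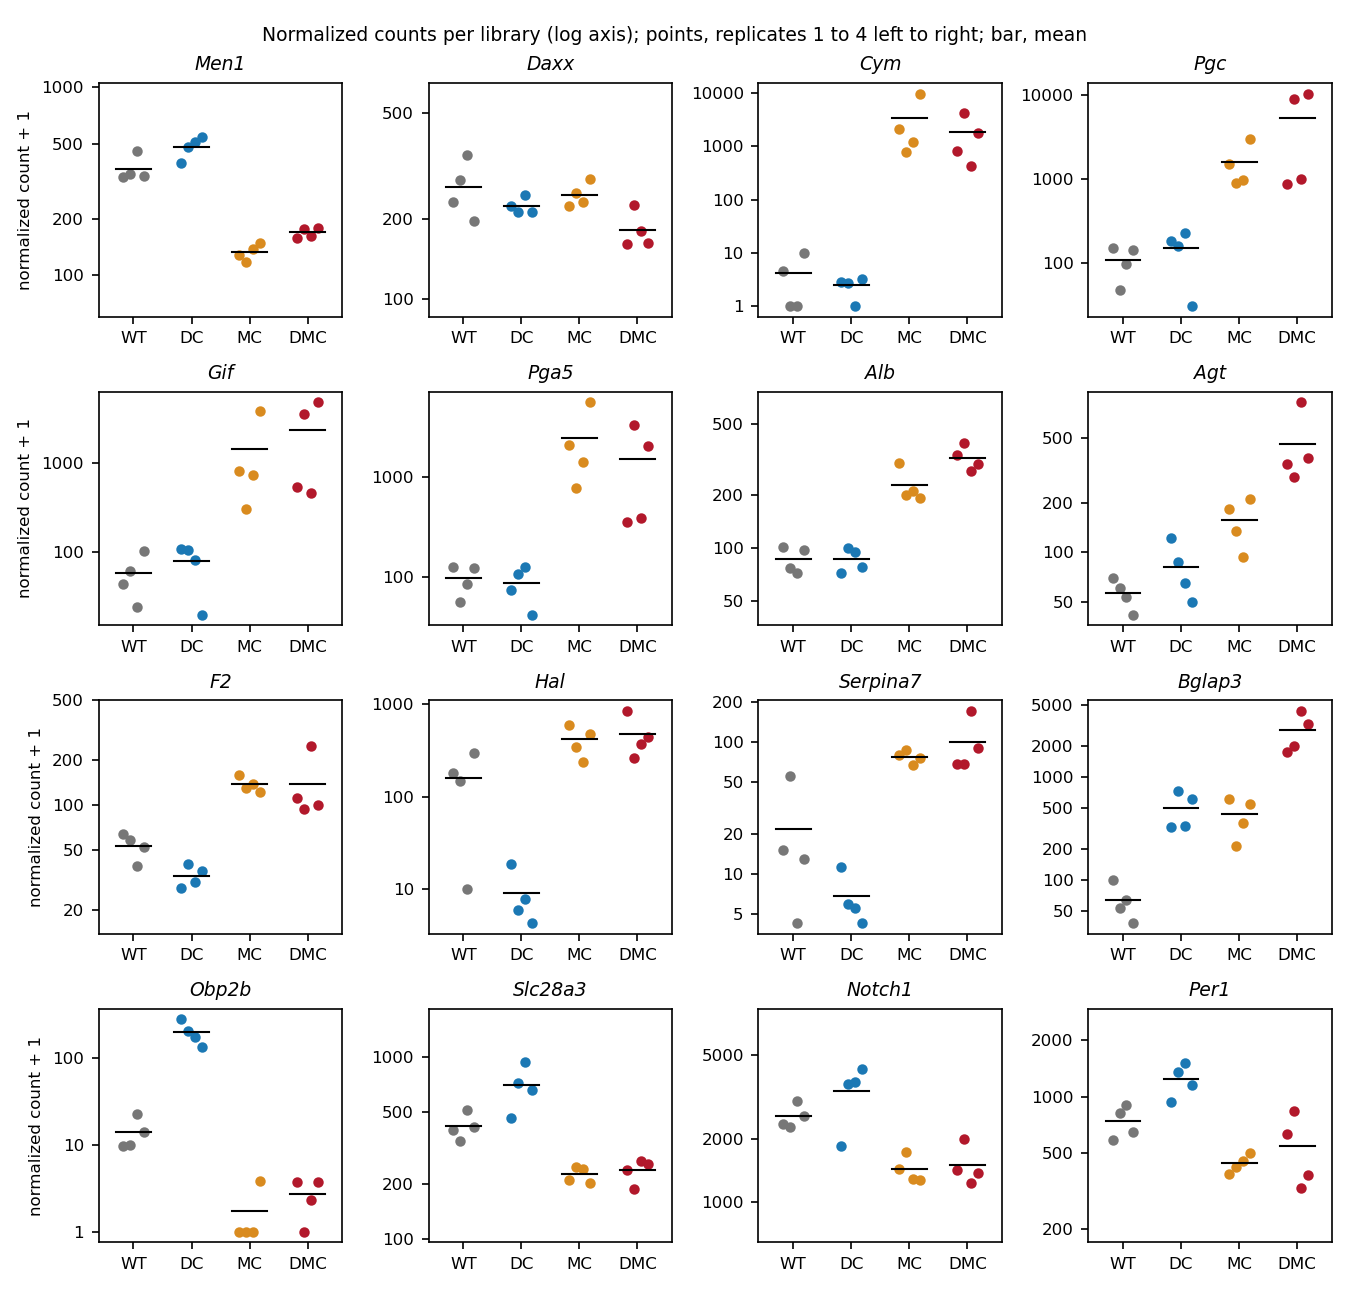
Normalized counts plus 1 (log axis) of 16 genes in each library, by genotype; points are replicates 1 to 4 from left to right and bars are means. Men1, Obp2b, Alb and Cym separate the 4 DMC from the 4 DC libraries, while Daxx, floxed in both, overlaps.

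Across all genes tested, 76 passed a Benjamini-Hochberg adjusted p of 0.05 in limma, which is 0.534% of 14220 tested. They were 38 higher in DMC (0.267%) and 38 lower (0.267%), and at an unadjusted p under 0.05 there were 1883. In 74 of the 76 the 4 DMC and 4 DC libraries did not overlap, whereas over all genes 6.35% were separated in that way. All 76 were protein-coding. The rises were the larger changes, with a median log2 difference of 2.58 over the 38, and the falls had a median of -1.18. The largest rises belonged to genes known from the stomach gland and from the liver, and the falls to a mixed set of transporters, receptors and regulators. Within 10 Mb of Men1 on chromosome 19, 3 of 229 tested genes rose (Gstp3, Pga5 and Gif) and 0 fell. Within 10 Mb of Daxx 1 of 327 rose (Glp1r). Gstp3, a glutathione transferase with similar copies nearby, had 13.5, 4.98, 4.56 and 2.201 in DC and 39.2, 37.9, 54.9 and 26.5 in DMC (log2 2.65 ± 0.42, limma adjusted p = 0.0107). Gstp3 no longer passed without DC replicate 3 (log2 2.59, limma adjusted p = 0.052).

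**Figure D2:**
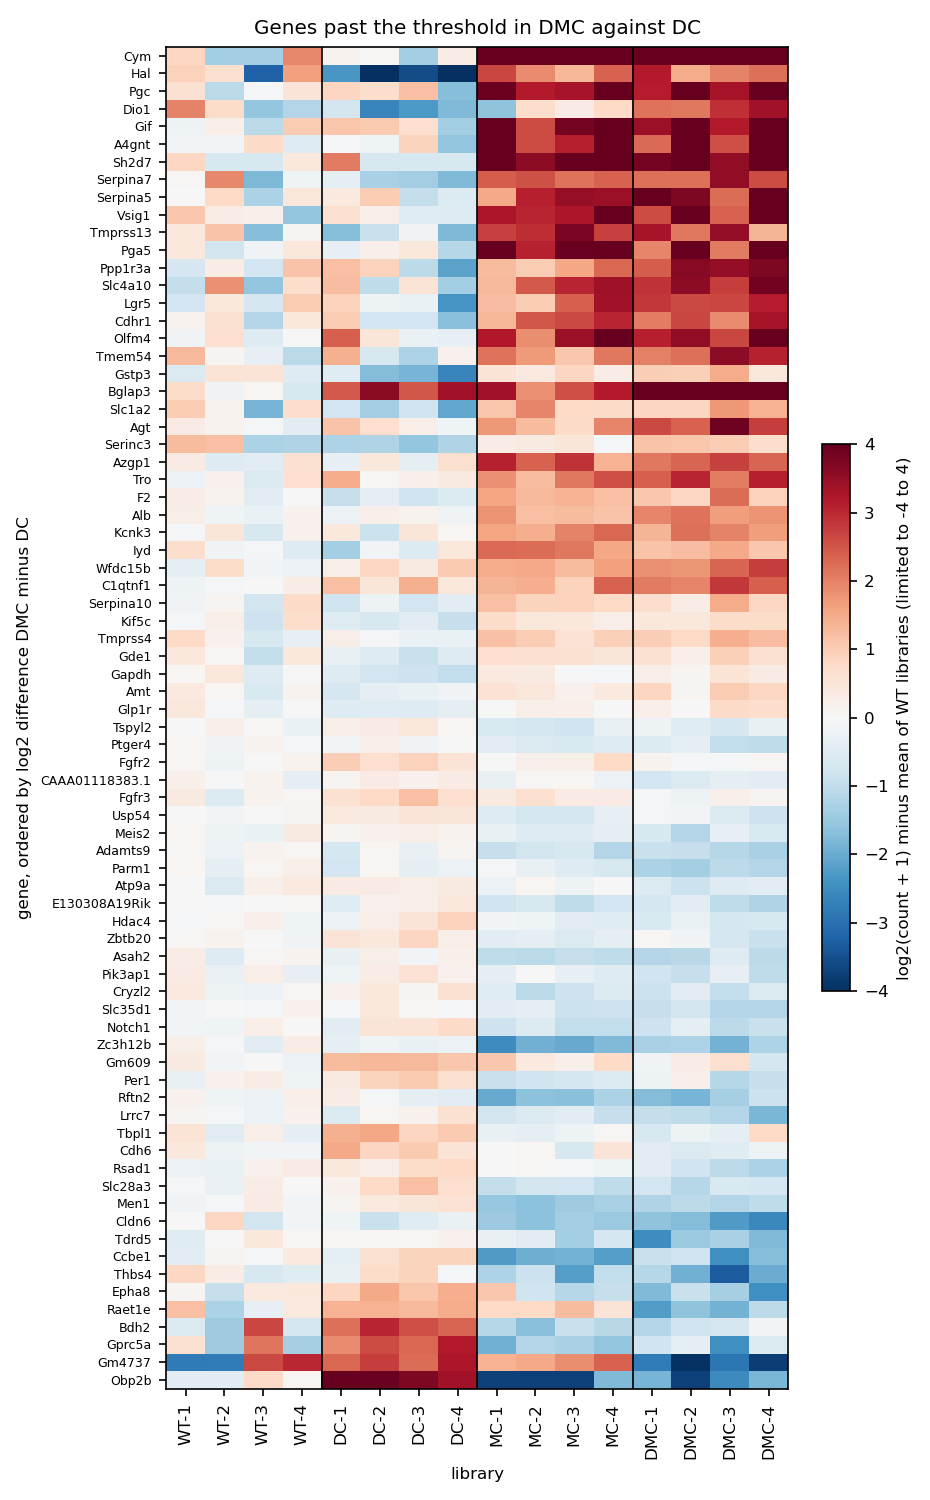
Log2 of the normalized count plus 1, less the mean of the WT libraries, for the 76 genes past the threshold in DMC against DC (rows, ordered by the log2 difference DMC minus DC) in the 16 libraries (columns). Colours are limited to -4 to 4; the upper 38 rows are higher in DMC than in DC and many are also red in MC, and the lower 38 are lower.

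Promoters of 4 genes that mark the main patterns are shown for orientation: Cym for the stomach genes, Alb for the liver-type genes, Obp2b for the deepest fall and Per1 for the clock genes. Each runs from 250 bases before to 50 bases after the start of a RefSeq transcript (GRCm38.p6), 5′ to 3′ on the gene's strand, with matches in capitals. They lie at chr3:107221683-107221982 (minus strand), chr5:90460620-90460919 (plus), chr2:25736757-25737056 (plus) and chr11:69098699-69098998 (plus, the upstream of 2 Per1 promoters).
Cym: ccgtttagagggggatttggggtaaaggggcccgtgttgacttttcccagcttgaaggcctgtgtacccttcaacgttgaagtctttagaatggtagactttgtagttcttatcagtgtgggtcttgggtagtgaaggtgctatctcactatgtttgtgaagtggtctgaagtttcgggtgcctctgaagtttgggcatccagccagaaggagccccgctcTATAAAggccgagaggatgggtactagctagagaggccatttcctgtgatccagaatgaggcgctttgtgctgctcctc
Alb: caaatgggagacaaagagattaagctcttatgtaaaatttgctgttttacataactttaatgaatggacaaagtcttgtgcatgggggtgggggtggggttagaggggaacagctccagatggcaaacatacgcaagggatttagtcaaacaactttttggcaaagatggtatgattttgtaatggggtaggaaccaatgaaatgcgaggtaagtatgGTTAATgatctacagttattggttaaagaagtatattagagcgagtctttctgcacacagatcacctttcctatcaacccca
Obp2b: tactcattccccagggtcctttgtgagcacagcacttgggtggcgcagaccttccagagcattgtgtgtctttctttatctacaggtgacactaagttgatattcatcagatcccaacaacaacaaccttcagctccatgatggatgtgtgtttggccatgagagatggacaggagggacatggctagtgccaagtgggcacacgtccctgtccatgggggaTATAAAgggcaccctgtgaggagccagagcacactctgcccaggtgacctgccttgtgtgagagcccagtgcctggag
Per1: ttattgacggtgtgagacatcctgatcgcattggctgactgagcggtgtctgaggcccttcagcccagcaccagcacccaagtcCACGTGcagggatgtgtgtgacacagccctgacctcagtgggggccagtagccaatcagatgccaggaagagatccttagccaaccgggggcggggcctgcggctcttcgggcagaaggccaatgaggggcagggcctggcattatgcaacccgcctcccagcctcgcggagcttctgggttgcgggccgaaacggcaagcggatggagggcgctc
The capitals mark a TATA box core in Cym (29 bases before the start) and Obp2b (28 before), a half-site of the liver and foregut factor HNF1 in Alb (32 before), and a canonical E-box in Per1 (166 before), the element bound by the clock factors CLOCK and BMAL1. The other Per1 promoter and the promoter of Slc28a3, which are not shown, held no match to these motifs. Promoters were found for 29 of the 38 higher genes (34 promoters) and 33 of the 38 lower genes (41 promoters). The letters TATAAA, searched on both strands, occurred in 32.35% of the promoters of higher genes, 7.32% of those of lower genes and 13.62% of all 32851 promoters. The half-site GTTAAT occurred in 20.59%, 0.0% and 7.1%, and the E-box CACGTG in 0.0%, 9.76% and 7.15%. None of these motifs is contained in another, though matches can share bases at their ends, and a match is a description of the letters only.

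A set of stomach gland genes rose in DMC. The mouse fundus makes its acid protease zymogens in chief cells, and of the 13 gastric gland and mucin genes tested 4 passed, all higher, with a median log2 difference of 2.72 and 12 positive. Cym (chr3:107211293-107221732) encodes chymosin, the milk-clotting protease of the stomach. It had 1.84, 1.66, 0 and 2.201 normalized counts in DC and 816, 4329, 427 and 1790.1 in DMC. That is 7 reads in the DC libraries together, at most 3 in each, against 9580 in DMC, so the gene went from near the floor of detection to a clear level in each library (log2 9.18 ± 0.88, limma adjusted p = 6.35e-05). With so few DC reads the log2 value depends on the pseudocount, and over the alternatives it was 7.66 to 10.41.

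Progastricsin, encoded by Pgc (chr17:47726842-47734482), had 181, 160.1, 228 and 29.7 in DC and 879.7, 8974, 1002 and 10444 in DMC (log2 4.65 ± 0.81, limma adjusted p = 0.0191). Gif (chr19:11747554-11763447), for the gastric intrinsic factor that carries vitamin B12, had 107, 103, 79.8 and 18.7 and 539, 3567, 456 and 4790.0 (log2 4.46 ± 0.85, limma adjusted p = 0.0266). Pga5 (chr19:10668956-10678071), for pepsinogen A, had 72.2, 105, 125 and 40.7 and 352, 3322, 389 and 2049 (log2 3.62 ± 0.69, limma adjusted p = 0.0266). In all 3 the DMC libraries lay above all of DC, with replicates 2 and 4 far above replicates 1 and 3, and DC replicate 4 was the lowest DC library.

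Other genes of the stomach had the same layout. A4gnt, the enzyme that caps the glycans of gland mucins, rose from 1.84, 1.66, 4.56 and 0 to 13.7, 218, 16.98 and 139 (log2 4.39, limma adjusted p = 0.0371). Vsig1, an adhesion protein of gastric epithelium, rose from 3.67, 2.49, 1.14 and 1.101 to 17.3, 85.9, 14.4 and 90.5 (log2 3.72, limma adjusted p = 0.0265). Members that did not pass, picked after their values were seen, included the gastrokine gene Gkn3 (mean 154 in DC and 4125 in DMC, limma adjusted p = 0.0598), the gland mucin Muc6 (56.8 and 654, limma adjusted p = 0.123), the parietal cell proton pump subunit Atp4a (5.86 and 48.7, limma adjusted p = 0.0911) and Tff2 (14061 and 18272, limma adjusted p = 0.591). The mean log2 level of the list was 5.38 to 6.74 in DC and 8.25 to 10.4 in DMC, beside 5.88 to 6.65 in WT and 8.61 to 10.4 in MC. Gkn1, Gkn2, Muc5ac, Atp4b and Tff1 were not analysed here, and whether stomach cells beside the pancreas added to these levels was not tested.

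DMC replicates 2 and 4, the high ones, had low Y-linked expression. With the Y-linked level as a covariate the log2 differences were 9.48 for Cym, 4.96 for Pgc, 4.79 for Gif and 3.97 for Pga5, all past the threshold (limma adjusted p = 7.76e-05, 0.0128, 0.0213 and 0.0112). When the clock level was the covariate they were 9.55, 4.99, 4.45 and 4.25, and only Cym of these 4 passed (limma adjusted p = 0.00112, then 0.113, 0.265 and 0.104).

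Cym passed with any 1 library left out, and the other calls did not. Pgc no longer passed without DC replicate 2, 3 or 4, or DMC replicate 4 (log2 3.999 to 4.96, limma adjusted p = 0.0501 to 0.0673). Gif no longer passed without DC replicate 2, 3 or 4, or DMC replicate 2 or 4 (log2 3.88 to 4.69, limma adjusted p = 0.0684 to 0.11). Pga5 no longer passed without DC replicate 2, 3 or 4, or DMC replicate 2 or 4 (log2 3.04 to 3.84, limma adjusted p = 0.0585 to 0.11). A4gnt no longer passed without DC replicate 2, 3 or 4, or MC replicate 1, or DMC replicate 2 or 4 (log2 3.71 to 4.76, limma adjusted p = 0.0504 to 0.152). Vsig1 no longer passed without DC replicate 2, 3 or 4, or DMC replicate 2 or 4 (log2 3.31 to 3.81, limma adjusted p = 0.0684 to 0.11).

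Genes of a liver-type list also rose, at lower levels. Its members were not checked against RNA of mouse liver. Of 17 liver-type genes tested 5 passed, all higher, and 14 were positive with a median log2 difference of 1.39. Albumin, Alb (chr5:90460897-90476602), had 71.6, 98.7, 94.6 and 77.04 normalized counts in DC and 332, 388, 272 and 297 in DMC. The groups stood well apart with little spread in either (log2 1.90 ± 0.18, limma adjusted p = 6.35e-05). F2, for prothrombin, had 26.9, 39.8, 29.6 and 35.2 and 110.2, 94.1, 248 and 99.6 (log2 1.93 ± 0.27, limma adjusted p = 0.00422), where DMC replicate 3 was the highest. Serpina5, a serpin that inhibits activated protein C, had 7.35, 11.6, 2.28 and 3.302 and 136, 83.2, 28.7 and 177 (log2 3.83 ± 0.63, limma adjusted p = 0.0129). Hal, for the histidine ammonia-lyase that starts histidine breakdown, had 17.8, 4.98, 6.84 and 3.302 and 843, 262, 371 and 435 (log2 5.80 ± 0.79, limma adjusted p = 0.00422). The highest DC library of Hal was far below the lowest DMC library. In WT, however, Hal had 179, 146, 8.97 and 293, so that 3 of the 4 WT libraries lay above all of DC. Serpina5 no longer passed without DC replicate 3 or 4, or DMC replicate 4 (log2 3.49 to 3.66, limma adjusted p = 0.054 to 0.0611). Alb, chosen after its values were seen, F2 and Hal passed with any 1 library left out.

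Other liver-type genes did not pass. Serpinc1, the antithrombin gene, averaged 25.4 ± 2.92 in DC and 22.2 ± 10.6 in DMC (limma adjusted p = 0.82), Ambp 790.3 ± 60.7 and 864 ± 306 (limma adjusted p = 0.947) and Ttr, for transthyretin, 1006 ± 355 and 1572 ± 745 (limma adjusted p = 0.394); these were picked after their values were seen. The mean log2 level of the list was 5.10 to 6.08 in DC and 6.62 to 7.10 in DMC. Apoh, Fga, Fgb and Fgg, which hepatocytes make in large amounts, were not analysed here, Apoa1 was below the filter, and whether liver RNA was present was not tested.

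More secreted proteins of the liver rose outside or beside that list. Serpina7, for the globulin that binds thyroxine in blood, had 10.4, 4.98, 4.56 and 3.302 and 67.4, 66.3, 169.8 and 88.6 (log2 3.85 ± 0.57, limma adjusted p = 0.00576). Agt, for angiotensinogen, had 122, 86.3, 63.8 and 48.4 and 343, 286, 823 and 376 (log2 2.45 ± 0.34, limma adjusted p = 0.00431), and Azgp1, a zinc-binding glycoprotein, 29.99, 51.4, 29.6 and 60.5 and 168, 197, 263 and 196 (log2 2.29 ± 0.36, limma adjusted p = 0.01); Agt and Azgp1 were chosen after their values were seen. DMC lay above DC in every library of these genes. Genes of thyroid hormone handling appeared here in more than 1 place: Dio1, the deiodinase that activates thyroxine, had 12.2, 2.49, 3.42 and 5.503 and 98.4, 92.7, 163 and 222 (log2 4.49 ± 0.72, limma adjusted p = 0.0107), and Iyd, which recovers iodide, 17.8, 43.97, 31.9 and 66.03 and 107, 114, 137 and 101 (log2 1.64 ± 0.33, limma adjusted p = 0.0361). No list of thyroid hormone genes was drawn up, and Iyd was chosen after its values were seen. Azgp1 no longer passed without DC replicate 3 (log2 2.14, limma adjusted p = 0.052). Dio1 no longer passed without DC replicate 2 or 3 (log2 4.23 to 4.34, limma adjusted p = 0.0529 to 0.0565). Iyd no longer passed without DC replicate 2 or 3, or MC replicate 2, or DMC replicate 1, 2, 3 or 4 (log2 1.55 to 1.73, limma adjusted p = 0.054 to 0.106).

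Further rises named by the rule belonged to genes of several kinds. Lgr5, the R-spondin receptor that marks intestinal and gastric stem cells, had 19.6, 8.296, 7.98 and 1.101 and 75.6, 65.6, 67.9 and 94.1 (log2 3.29 ± 0.64, limma adjusted p = 0.0289). It was the 1 gene of 29 in the Wnt pathway list to pass, and the Wnt target Axin2 had a log2 difference of 0.27 ± 0.25 (limma adjusted p = 0.695). Olfm4, a secreted glycoprotein of crypt stem cells, had 55.7, 14.1, 7.98 and 7.704 and 92.9, 125, 67.9 and 240.3 (log2 2.88 ± 0.59, limma adjusted p = 0.0365), where DC replicate 1 came closest to DMC. The transmembrane serine protease Tmprss13 rose from 2.45, 4.98, 9.12 and 2.201 to 108, 47.4, 125 and 27.4 (log2 3.70 ± 0.59, limma adjusted p = 0.0107). Slc4a10, a sodium bicarbonate transporter, differed on the log2 scale by 3.43 ± 0.73 (limma adjusted p = 0.0494) and Cdhr1, a cadherin-related protein best known from photoreceptors, 3.03 ± 0.55 (limma adjusted p = 0.0223). Lgr5 no longer passed without DC replicate 2, 3 or 4, or DMC replicate 1, 2, 3 or 4 (log2 2.67 to 3.38, limma adjusted p = 0.0526 to 0.11). Olfm4 no longer passed without WT replicate 4, or DC replicate 2, 3 or 4, or MC replicate 3, or DMC replicate 1, 2, 3 or 4 (log2 2.54 to 3.14, limma adjusted p = 0.0509 to 0.148). Slc4a10 no longer passed without WT replicate 4, or DC replicate 2, 3 or 4, or MC replicate 2, 3 or 4, or DMC replicate 1, 2, 3 or 4 (log2 3.02 to 3.66, limma adjusted p = 0.0558 to 0.168). Cdhr1 no longer passed without DC replicate 2, 3 or 4, or DMC replicate 2 or 4 (log2 2.66 to 2.97, limma adjusted p = 0.0501 to 0.0885).

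Bglap3, of the osteocalcin family, had 326, 731, 338 and 619.6 in DC and 1770.4, 2010.2, 4394 and 3289 in DMC (log2 2.50 ± 0.39, limma adjusted p = 0.00989). The family holds near-identical copies and how shared reads were counted is not given in the sources used here, so its level is uncertain; Bglap and Bglap2 were not analysed here. Each DMC library lay above each DC library. Gapdh, chosen after its values were seen and encoding a glycolytic enzyme often used as a reference, had 763, 645, 619 and 551 and 1315, 1172, 1615 and 1372 (log2 1.09 ± 0.18, limma adjusted p = 0.0129), though it has many pseudogene copies. Its WT libraries, at 770 to 1497, lay above all of DC and overlapped DMC, and its log2 difference in MC against WT was 0.16. Glp1r, the receptor for the incretin GLP-1 on beta cells, had 570.5, 586, 565 and 616 and 976, 824, 1382 and 1310.4 (log2 0.91 ± 0.17, limma adjusted p = 0.0266). In WT Glp1r was at 614 to 1119, and its log2 difference in MC against WT was 0.11. Amt, of the glycine cleavage system, had a log2 difference of 1.06 ± 0.22 (limma adjusted p = 0.0403). Bglap3 no longer passed without DC replicate 3 (log2 2.34, limma adjusted p = 0.052). Gapdh no longer passed without DC replicate 3 or 4 (log2 1.01 to 1.07, limma adjusted p = 0.054 to 0.0565). Glp1r no longer passed without DC replicate 2, 3 or 4, or DMC replicate 3 or 4 (log2 0.80 to 0.94, limma adjusted p = 0.0707 to 0.11). Amt no longer passed without WT replicate 2 or 4, or DC replicate 1, 2, 3 or 4, or MC replicate 2 or 4, or DMC replicate 1, 3 or 4 (log2 0.95 to 1.13, limma adjusted p = 0.0521 to 0.138).

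Obp2b, an odorant binding protein of the lipocalin family, showed the deepest fall. Obp2b (chr2:25737009-25740097) had 279.7, 207, 175 and 135 normalized counts in DC and 2.73, 0, 1.31 and 2.74 in DMC, which is 984 reads against 7. Each DMC library lay near the floor of 3 reads or under it, and each DC library far above (log2 -6.35 ± 0.54, limma adjusted p = 3.51e-05). With so few DMC reads this value too depends on the pseudocount, and over the alternatives it was -6.96 to -4.91. WT was at 8.84, 9.04, 22.03 and 13.2 and MC at 0, 0, 0 and 2.902, so the gene was high in DC alone, and near or under the detection floor in both groups with floxed Men1. Lcn2 of the same superfamily averaged 136 ± 33.7 and 97.1 ± 39.4 (limma adjusted p = 0.532). Obp2a was not analysed here.

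Slc28a3 (chr13:58545399-58610877), a sodium-coupled nucleoside transporter, fell from 460.3, 721, 937 and 659 to 239.5, 186, 268 and 259 (log2 -1.51 ± 0.19, limma adjusted p = 0.00146). The orphan receptor Gprc5a, which is induced by retinoic acid, fell from 98.5, 165, 133 and 245 to 14.6, 19.6, 3.92 and 17.4 (log2 -3.55 ± 0.66, limma adjusted p = 0.0255). Bdh2, a short-chain dehydrogenase of ketone body and siderophore metabolism, fell from 247, 443, 322 and 267 to 22.8, 29.8, 32.7 and 48.4 (log2 -3.23 ± 0.61, limma adjusted p = 0.0265). The groups did not overlap in any of the 3. In WT, Gprc5a had 40.7, 9.04, 117 and 9.88 and Bdh2 35.4, 18.99, 339 and 32.9, with WT replicate 3 apart from the others in both. Gprc5a no longer passed without DC replicate 2, 3 or 4, or DMC replicate 1, 3 or 4 (log2 -3.72 to -3.08, limma adjusted p = 0.0513 to 0.0891). Bdh2 no longer passed without DC replicate 2, 3 or 4, or DMC replicate 1, 2, 3 or 4 (log2 -3.43 to -3.07, limma adjusted p = 0.0526 to 0.106).

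Genes of the matrix and of cell contacts were among the falls. Thbs4, a matricellular thrombospondin, had 93.04, 192, 212 and 112 in DC and 51.00, 29.8, 10.5 and 28.3 in DMC (log2 -2.42 ± 0.45, limma adjusted p = 0.0265), and was the 1 of 51 fibrillar collagen and matrix genes to pass. In that list 44 had a negative difference, with a median of -0.44. In MC against WT the list leaned the other way, with 48 of 51 positive and a median of 0.50. The mean log2 level of the list was 9.06 to 10.1 in DC and 8.67 to 9.34 in DMC, beside 8.66 to 8.93 in WT and 9.12 to 9.63 in MC. DC replicate 1 was the highest. Col1a1 differed on the log2 scale by -0.72 ± 0.29 (limma adjusted p = 0.298) and Col3a1 -0.57 ± 0.23 (limma adjusted p = 0.303). Ccbe1, which helps activate the lymphatic growth factor VEGF-C, fell from 234, 465, 567 and 572 to 164, 178, 54.9 and 93.2 (log2 -1.96 ± 0.34, limma adjusted p = 0.0191). Cldn6, a claudin of tight junctions, fell from 80.8, 48.9, 64.9 and 75.9 to 29.1, 27.1, 18.3 and 14.6 (log2 -1.59 ± 0.30, limma adjusted p = 0.0265), as the 1 of 23 tight junction genes to pass. Cdh6, a cadherin, fell from 159, 101, 116 and 81.4 to 40.98, 36.5, 39.2 and 47.5 (log2 -1.42 ± 0.25, limma adjusted p = 0.0199). Thbs4 no longer passed without DC replicate 2, 3 or 4, or DMC replicate 3 or 4 (log2 -2.53 to -2.003, limma adjusted p = 0.0637 to 0.106). Ccbe1 no longer passed without DC replicate 2, 3 or 4, or DMC replicate 4 (log2 -1.93 to -1.83, limma adjusted p = 0.0651 to 0.077). Cldn6 no longer passed without DC replicate 2, 3 or 4, or DMC replicate 3 or 4 (log2 -1.73 to -1.41, limma adjusted p = 0.0532 to 0.107). Cdh6 no longer passed without DC replicate 2 or 3 (log2 -1.47 to -1.40, limma adjusted p = 0.062 to 0.0736).

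Some receptors and nuclear regulators also fell. Notch1 had 1839.9, 3638, 3694 and 4289 in DC and 1413, 1983, 1237 and 1368 in DMC. Here DC replicate 1 lay inside the DMC range, and the 3 other DC libraries lay above it (log2 -1.12 ± 0.22, limma adjusted p = 0.0304). It was the 1 of 19 Notch pathway genes to pass, and the pathway's target Hes1 had a log2 difference of 0.06 ± 0.18 (limma adjusted p = 0.932). Fgfr2, the receptor for epithelial fibroblast growth factors, had 535, 427, 510.5 and 398 and 299.6, 263, 261 and 285 (log2 -0.74 ± 0.15, limma adjusted p = 0.0376). Fgfr3 had 746, 849.5, 1122 and 774 and 461, 424, 554 and 519 (log2 -0.82 ± 0.18, limma adjusted p = 0.0484). The prostaglandin receptor Ptger4 (-0.73), the deacetylase Hdac4 (-0.92), the homeobox gene Meis2 (-0.85) and the zinc finger repressor Zbtb20 (-0.93) fell on the log2 scale as well (limma adjusted p = 0.0337, 0.0364, 0.0265 and 0.0261); these 4 were chosen after their values were seen. The naming rule also gave Rsad1 (-1.45), the TBP-like factor Tbpl1 (-1.33), the synaptic scaffold Lrrc7 (-1.32), the raft protein Rftn2 (-1.30) and Zc3h12b (-1.15), with limma adjusted p between 0.00422 and 0.0422. Each of these 9 genes other than Rsad1 no longer passed without DC replicate 2 or 3, among others (limma adjusted p up to 0.153 for Tbpl1). Notch1 no longer passed without DC replicate 2, 3 or 4, or DMC replicate 1, 3 or 4 (log2 -1.10 to -0.98, limma adjusted p = 0.0821 to 0.12). Fgfr2 no longer passed without DC replicate 1, 2, 3 or 4, or MC replicate 2 or 3, or DMC replicate 1, 2, 3 or 4 (log2 -0.82 to -0.68, limma adjusted p = 0.0521 to 0.12). Fgfr3 no longer passed without WT replicate 4, or DC replicate 2, 3 or 4, or MC replicate 1, 2, 3 or 4, or DMC replicate 1, 2, 3 or 4 (log2 -0.88 to -0.69, limma adjusted p = 0.0584 to 0.144).

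**Figure D3:**
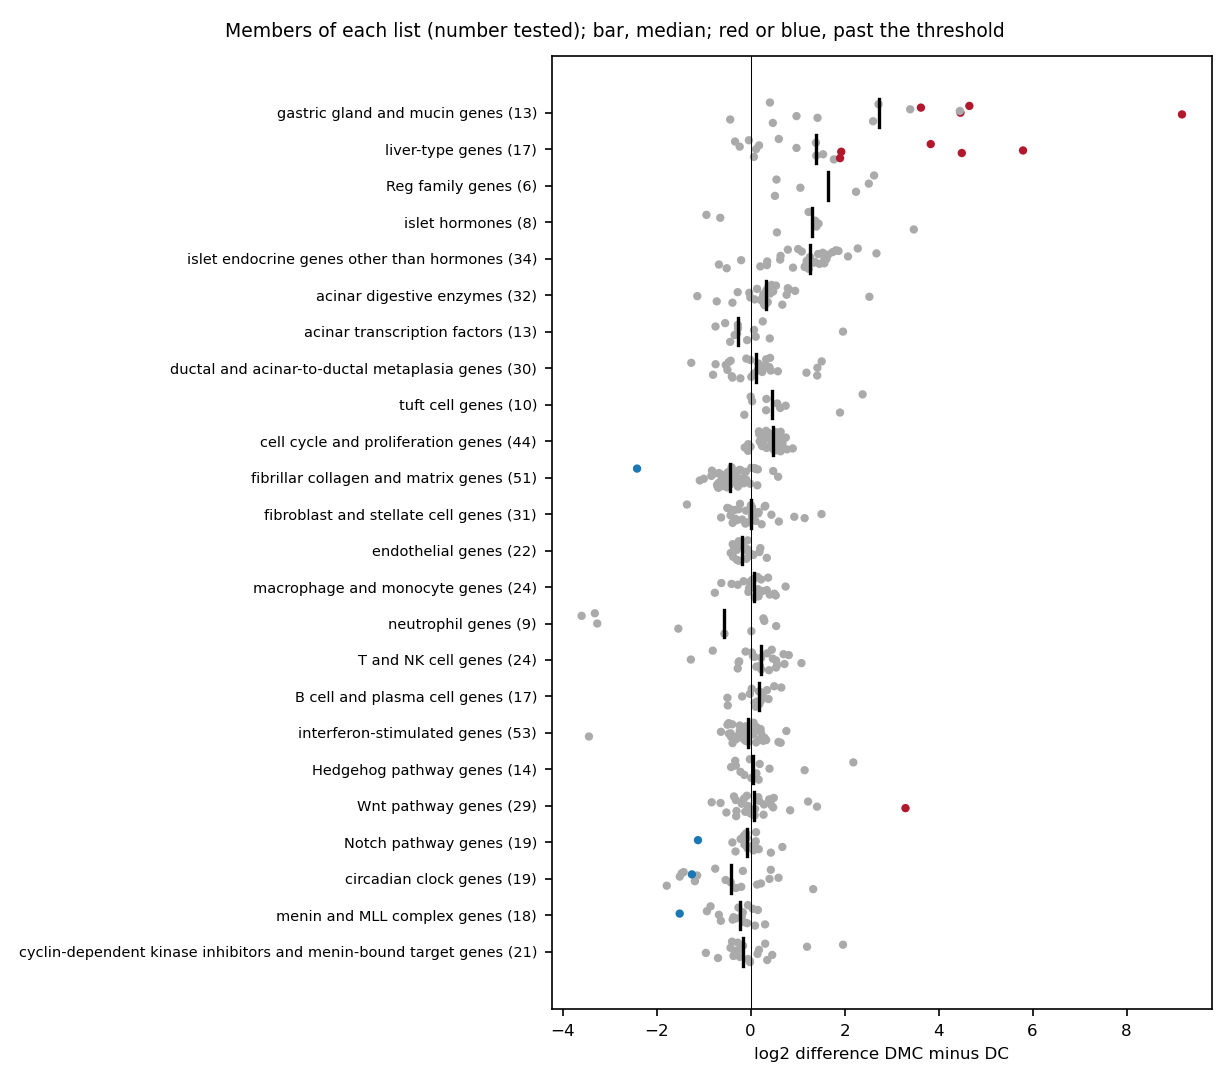
Log2 difference DMC minus DC of each tested member of 24 gene lists; the bar is the median of the list, the number in brackets is how many members were tested, and red and blue points passed the threshold upwards and downwards. Gastric and liver-type genes hold most red points, and islet genes lie to the right of 0 without any member past the threshold.

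No gene of the islet lists passed, where 0.534% of all genes did, though most of the differences were positive. Menin is a known brake on the endocrine islet, so these genes are given by library. Of 34 islet genes other than hormones 31 were positive, with a median log2 difference of 1.26, and 0 passed. The mean log2 level was 8.12, 6.71, 6.68 and 6.16 in DC and 7.69, 8.19, 7.34 and 9.10 in DMC, so the groups overlapped through DC replicate 1. Scg2, a granule protein of endocrine cells, had 3025, 639, 521 and 422 and 4258, 5127, 2846 and 11469.7 (log2 2.68 ± 0.67, limma adjusted p = 0.0949). Of 8 islet hormones 0 passed. Ins2 had 30192, 6521, 6292 and 3763 and 16938, 18027, 13502 and 51193 (limma adjusted p = 0.38), and Gcg, for glucagon, 25051, 11942, 5593 and 4203 and 9887, 29257, 3247 and 35338 (limma adjusted p = 0.854). For Ghrl, for the stomach and islet hormone ghrelin, the values were 26.9, 19.9, 18.2 and 5.503 and 51.00, 345, 86.2 and 704 (log2 3.47 ± 0.81, limma adjusted p = 0.0709), the nearest to the threshold among the hormones.

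No gene of the acinar programme passed. Among 32 acinar digestive enzymes 0 passed, 26 were positive and the median log2 difference was 0.33, and among 13 acinar transcription factors 0 passed with a median of -0.27. In MC against WT 2 of the 32 enzymes were positive, with a median of -0.34. Cel, a bile salt-dependent lipase, averaged 973063 ± 287238 in DC and 1213680.0 ± 324714 in DMC (limma adjusted p = 0.869). Ptf1a, the master regulator of acinar fate, had a log2 difference of -0.27 ± 0.39 (limma adjusted p = 0.837). Duct and acinar-to-ductal metaplasia genes counted 0 of 30, with a median of 0.12, and Krt19 averaged 431 ± 217 and 529 ± 53.9 (limma adjusted p = 0.754). All 6 genes of the Reg family, secreted lectins of the injured pancreas, were positive with a median of 1.65. None passed: Reg3b had 2398, 5298, 3089 and 5578 and 15563, 12200.2, 60765 and 20217 (limma adjusted p = 0.107) and Reg3g 488, 1593, 1130.3 and 1113 and 7915, 3197, 11864 and 4749.8 (limma adjusted p = 0.118). Both genes were separated between the groups, and DMC replicate 3 was the highest library of each. The copies of this family are alike, so reads may be split between them.

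No proliferation gene passed, where 0.534% of all genes did, while 40 of 44 were positive with a median log2 difference of 0.48. Mki67 had 1589.6, 1694, 1521 and 2428 and 2963, 1856, 2931 and 1669 (log2 0.36 ± 0.29, limma adjusted p = 0.639), with overlapping groups. Over the proliferation list, 17 of 44 genes were positive in MC against WT, with a median of -0.08. The p53 target list counted 0 of 26 (median 0.12), Hedgehog 0 of 14 (0.04), Hippo 0 of 22 (-0.23), TGF-beta and BMP 0 of 30 (-0.10), Polycomb and DNA methylation 0 of 19 (-0.03) and endoplasmic reticulum stress 0 of 35 (-0.18).

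Lists for stromal and immune cells, in which Pdx1-Cre is not active, held no gene past the threshold apart from Thbs4 among the matrix genes. At the share of 0.534% over all genes, lists of these sizes would hold few calls or none. Fibroblast and stellate cell genes counted 0 of 31 past the threshold (median log2 difference 0.01), endothelial genes 0 of 22 (-0.18), macrophage and monocyte genes 0 of 24 (0.08), T and NK cell genes 0 of 24 (0.22), B and plasma cell genes 0 of 17 (0.18) and interferon-stimulated genes 0 of 53 (-0.06). Adipocyte genes counted 0 of 23 (-0.17). Tuft cell genes, which mark a sensory epithelial cell, counted 0 of 10 (0.45). Sh2d6 of that list was below the filter. Sh2d7, outside the list and chosen after its values were seen, passed upwards (log2 4.36, limma adjusted p = 0.0223). Its DC libraries held 9 reads together, all in replicate 1, against 222 in DMC. It also passed in MC against WT (log2 4.93, limma adjusted p = 0.00947). Sh2d7 no longer passed without DC replicate 2, 3 or 4, or DMC replicate 2 or 4 (log2 3.79 to 4.45, limma adjusted p = 0.0526 to 0.0832). The neutrophil list had a median of -0.56 with 0 of 9. In it S100a8 had 20.8, 436, 5.697 and 112 in DC and 2.73, 2.71, 11.8 and 0.914 in DMC (limma adjusted p = 0.138), so DC replicates 2 and 4 made most of the difference.

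Of the 19 circadian clock genes tested 1 passed, lower in DMC, while 13 were negative with a median log2 difference of -0.42. At an unadjusted limma p under 0.05 there were 10 of the 19, beside 1883 of all 14220 genes. Per1, a repressor of the circadian clock that also responds to glucocorticoids, had 936, 1347, 1496 and 1148 in DC and 637, 841, 328 and 383 in DMC. All DMC libraries lay below all of DC (log2 -1.25 ± 0.25, limma adjusted p = 0.0311), and none of the other clock genes among the 19 tested did. Set beside WT, the DC libraries of Per1 lay above all WT libraries, and the DMC libraries overlapped WT. The clock gene level was -0.48 to 2.28 in WT and -0.79 to -0.18 in MC. Per1 no longer passed without DC replicate 2, 3 or 4, or DMC replicate 3 or 4 (log2 -1.28 to -1.04, limma adjusted p = 0.0812 to 0.126). Per2 had 393, 513, 680.2 and 619.6 and 214, 415, 163 and 98.7 (limma adjusted p = 0.122), Nr1d1, a repressor of the clock's positive arm, 217, 312, 557 and 395 and 153, 422, 66.6 and 51.2 (limma adjusted p = 0.269) and Arntl, which encodes BMAL1 and peaks in the opposite phase, 185, 116, 112 and 89.1 and 241, 139, 549 and 472 (limma adjusted p = 0.147); these 3 were picked after their values were seen. In each of them DMC replicate 2 was the DMC library nearest to DC. With the clock gene level as a covariate, 7 genes passed in place of 76: Alb, Cym, Men1, Meis2, Obp2b, Rftn2 and Slc28a3. That level differs between the groups, so the covariate also takes up part of the genotype difference, and collection time and genotype cannot be fully told apart.

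**Figure D4:**
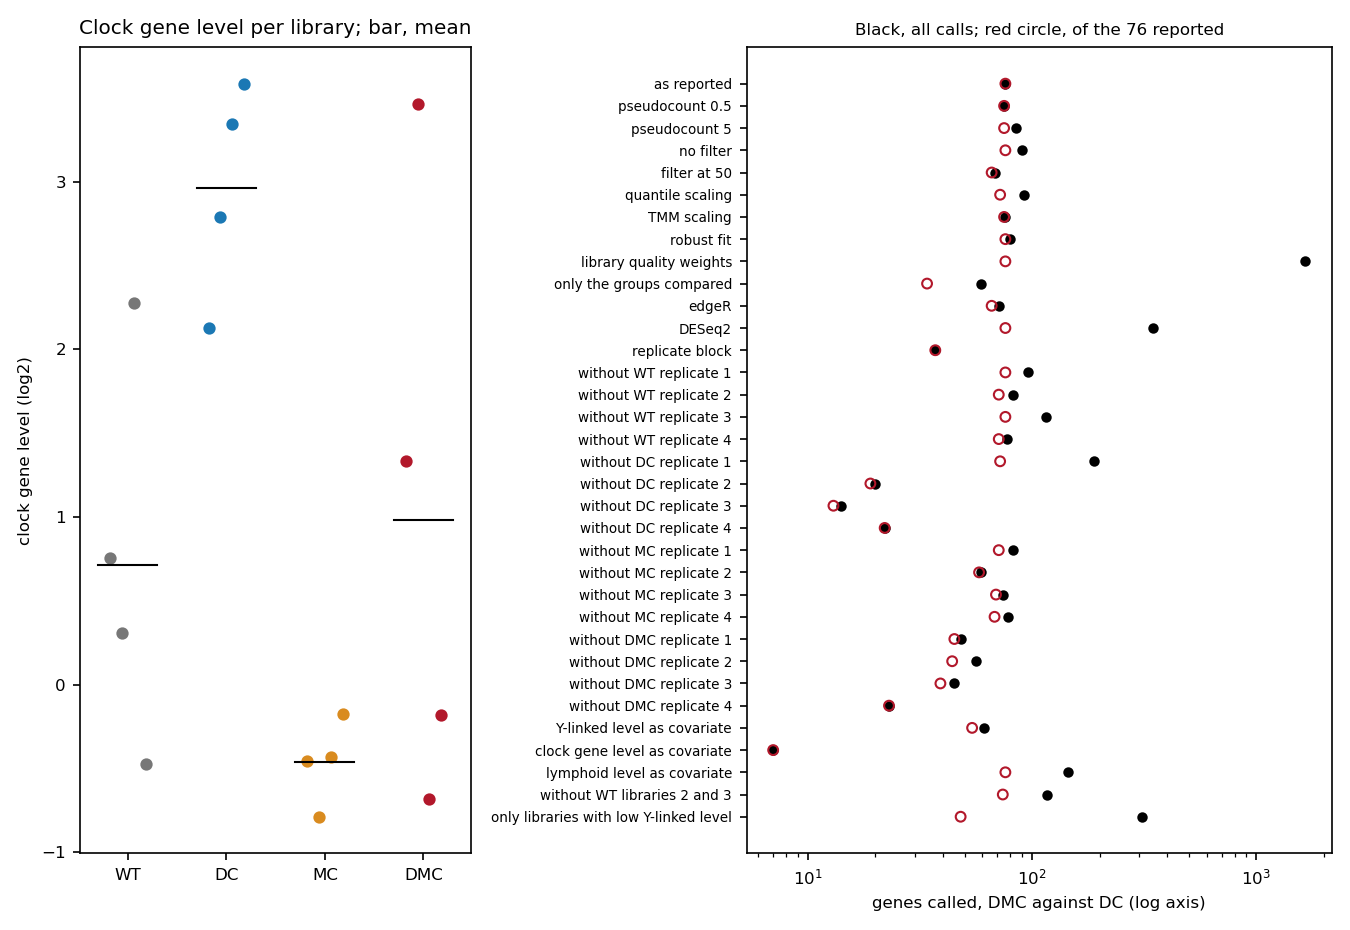
Left, clock gene level (log2) of each library by genotype, with bars at the means; right, number of genes past the threshold in DMC against DC under each setting (black, log axis) and how many of the 76 reported genes are among them (red circles). The 4 DC libraries, DMC replicate 2 and WT replicate 3 have the highest clock levels, and the count is lowest with the clock covariate at 7.

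Men1 loss was also measured in MC against WT, a comparison that shares no library with DMC and DC and has unfloxed Daxx. Both comparisons came from a single fit, so they share its estimate of the spread. In both, the group with floxed Men1 had the lower median clock gene level. The medians were 3.07 in DC and 0.58 in DMC, and 0.53 in WT and -0.44 in MC. Whether this adds to the shared directions was not tested. MC mice carry Pdx1-Cre and the WT label names no Cre, while DMC and DC share it. Men1 loss and the presence of Cre therefore cannot be told apart in MC against WT. There 111 genes passed, 0.781% of those tested. Of the 76 genes, 71 differed in the same direction in MC against WT (93.4%, against 56.5% of all genes), 28 passed there in the same direction (36.8% of the 76 and 25.2% of the 111) and 0 in the opposite one. All 38 higher genes had the same sign and 19 passed, and 33 of the 38 lower genes had the same sign and 9 passed. Cym was at 3.54, 0, 0 and 8.78 in WT and 2089, 768, 1219 and 9856 in MC (log2 9.67, limma adjusted p = 6.16e-05), Alb at 101, 75.9, 70.98 and 96.6 and 301, 198, 208 and 190.1 (1.36, limma adjusted p = 0.00365) and Slc28a3 at 396, 344, 507 and 409.6 and 209.5, 246, 242 and 203 (-0.87, limma adjusted p = 0.0422). Men1 itself differed by -1.47 there, close to its -1.51 in DMC against DC.

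In 62 of the 76 the difference was smaller in MC against WT, and the genes were selected on the DMC against DC values, which favours the larger value there. Genes with a large difference in DMC against DC and little in MC against WT included Dio1 (4.49 and 0.05), Rsad1 (-1.45 and -0.04) and Cdh6 (-1.42 and -0.01). Dio1 spread widely in WT, at 84.9, 35.3, 6.53 and 8.78, and in MC, at 6.13, 34.9, 26.3 and 37.0. Its WT replicates 1 and 2 lay above all of DC. Hal had log2 differences of 5.80 and 2.06, but in MC against WT it did not pass (limma adjusted p = 0.285) and the groups overlapped. The test of the difference itself, the interaction of Men1 loss with the Daxx state, passed for 0 genes (0%) in limma, with 1156 at an unadjusted p under 0.05. It passed for 0 in edgeR and 43 in DESeq2. In the labels Cre differs within MC against WT alone, so the interaction cannot tell the Daxx state from Cre. Nearest to the threshold were Steap3, a metalloreductase, and Raet1e, a stress ligand of the NK cell receptor NKG2D whose family holds similar copies. Steap3 had 216, 159, 165 and 169 in WT, 361, 362, 220.3 and 289 in MC, 286, 304, 279 and 242 in DC and 167, 158, 185 and 181 in DMC, so each MC library lay above each WT library while each DMC library lay below each DC library (interaction log2 -1.46, limma adjusted p = 0.0817). Raet1e had 34.3, 34.01, 31.9 and 36.3 in DC and 1.82, 3.38, 2.61 and 5.48 in DMC, with 4.52 to 30.1 in WT and 18.1 to 31.3 in MC (interaction log2 -3.93, limma adjusted p = 0.0817). Among genes with an established symbol, Itgbl1, Fgfr3 and Rsad1 came next, with the predicted genes Gm4737 and Gm609 between them (limma adjusted p = 0.27 each). Fgfr3 was 331 to 622 in WT and 609 to 764 in MC against 746 to 1122 in DC and 424 to 554 in DMC.

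**Figure D5:**
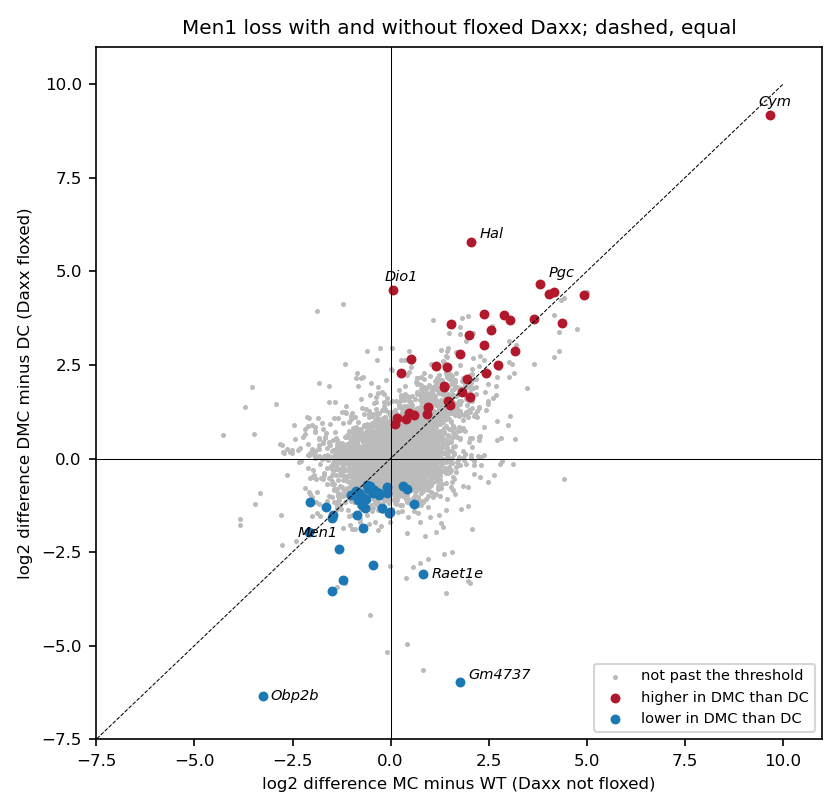
Log2 difference DMC minus DC (vertical) against MC minus WT (horizontal) for 14220 genes; red and blue points are the 76 genes past the threshold in DMC against DC and the dashed line marks equal values. Cym and Pgc lie near the line, Dio1 and Hal above it, and Obp2b, Raet1e and Gm4737 below.

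Set beside WT, 26 of the 38 higher genes had all DMC libraries above all WT libraries while DC overlapped WT. In 2 more both DC and DMC lay above WT, in 9 both overlapped it, and in 1 DC lay below all WT libraries while DMC overlapped. Of the 38 lower genes 21 had all DMC libraries below all of WT while DC overlapped it, and 2 had DC above and DMC below it. For 9 DC lay above all WT libraries and DMC overlapped, as for Fgfr2, where WT had 286, 235, 266 and 299.8, and in 6 both overlapped. These counts describe the 76 selected genes, and no test was made of them.

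The number of genes rested on single libraries. All 76 kept their sign under each setting in which they were tested (8 were untested at a filter of 50), which the selection by adjusted p largely fixes. Leaving out DC replicate 3 left 14 genes past the threshold, DC replicate 2 left 20, DC replicate 4 left 22 and DMC replicate 4 left 23, and leaving out DC replicate 1 gave 188. A fit on the DC and DMC libraries alone gave 59 genes, of which 34 were among the 76, and the calls it ended included Pgc, Gif, Pga5, A4gnt, Vsig1, Lgr5 and Notch1. The 13 genes that passed with any 1 library left out were Agt, Alb, Cym, F2, Hal, Men1, Obp2b, Raet1e, Rsad1, Serpina7, Slc28a3, Slc35d1 and Tmprss13. Over all 33 alternatives 5 kept their call: Alb, Cym, Men1, Obp2b and Slc28a3.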

How the data were processed

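Total RNA of flash frozen pancreas was extracted with TRIzol and an RNeasy kit and made into strand-specific TruSeq total RNA libraries, per the labels' protocols. STAR 2.6.0b, the GRCm38 build and DESeq2 are named in the submitters' processing notes; for the counter and the gene annotation, the sources used here give no name. The values the authors deposited are a normalized count signal, 15156 genes by 16 libraries, equal to whole reads (within 0.01 reads) divided by 1 factor per library. The table held 0 columns of other samples. Recovered reads per library came to 13481063 to 23728309, and 3 reads correspond to 1.84 to 5.30 normalized counts.

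The 14220 genes with at least 10 normalized counts in at least 4 libraries were tested on log2(normalized count + 1) with limma 3.58.1 (trend, R 4.3.3), with a coefficient per genotype over all 16 libraries and Benjamini-Hochberg adjustment over all genes at 0.05. Log2 differences on this scale understate changes of low genes. The labels do not say that replicates are separate animals, so p-values measure only the spread between these libraries. That spread was above counting noise (chi-square per degree of freedom 8.63 to 132.55 between libraries of a group). The recovered reads were also tested with edgeR 4.0.16 and DESeq2 1.42.0, and further alternatives changed the pseudocount, filter, scaling, weights, libraries and covariates. Replicates were compared, and none was found to be a repeat of another. Gene positions are from GENCODE M21 for 15152 of the genes, and promoters from RefSeq.

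The comparison and the 50 gene lists were chosen with earlier results of these data known, and lists are therefore described by counts and medians. Of the 50, 47 were counted as gene groups, and not all of these are given in the text. Genes were named by a rule: the 15 largest rises and 15 largest falls past the threshold among genes averaging 50 or more whose groups did not overlap, up to 4 called or else the 3 most abundant genes of each list, the 5 lowest interaction p-values, and called genes within 10 Mb of Men1 or Daxx. Rises, falls and interaction genes needed an established symbol, which leaves out predicted genes such as Gm4737 and Gm609, clones and Rik names. Axin2, Col1a1, Col3a1, Ghrl, Hes1, Lcn2, Ptf1a and Reg3g, besides the genes marked in the text, were chosen after their values were seen.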

Additional observations from a re-analysis of the deposited data

Results flagged for a closer look

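Among 284 groups of 4 libraries (142 named genes in DC and in DMC), 10 had a library far from the other 3 by Dixon's criterion, where chance flags about 1 in 20 groups. Among the genes past the threshold, Cym was at 0 normalized counts in DC replicate 3 against 1.66 to 2.20 in the other DC libraries, a matter of at most 3 reads. Gif was at 18.7 in DC replicate 4 against 79.8 to 107. Zc3h12b was at 28.7 in DMC replicate 3 against 44.6 to 46.6. F2 was at 248 in DMC replicate 3 against 94.1 to 110.2.

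Among genes that did not pass, the acinar factor Bhlha15 stood apart in both groups, at 2811 in DC replicate 1 against 6208 to 7295 and at 3088 in DMC replicate 4 against 4223 to 4447. The amino acid transporter gene Slc7a8 was at 1015 in DC replicate 1 against 2735 to 3163, and its partner Slc3a2 at 3698 in DMC replicate 3 against 2330 to 2449. Igf1 was at 1907 in DC replicate 2 against 1361 to 1399, and Zbtb46 at 335 in DC replicate 3 against 268.5 to 276.3.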

How the results depend on the processing

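The count of 76 genes in DMC against DC became 1655 with library quality weights, 345 with DESeq2, 144 with the lymphoid level as a covariate, 117 without WT replicates 2 and 3, 7 with the clock gene level as a covariate and 309 over only the libraries with a low Y-linked level, an alternative chosen after seeing the data. Leaving out 1 library gave 14 to 188. The other settings without a replicate block gave 59 to 92, and the 59 of the groups compared alone held 34 of the 76. The 111 genes in MC against WT became 265 with weights, 391 with DESeq2, 67 in the groups compared alone, 44 with the clock covariate, 200 with the lymphoid covariate and 17 in the low Y-linked libraries, and 38 to 189 without 1 library. The interaction, at 0 genes, gave 2 with a pseudocount of 5, 11 with weights, 43 with DESeq2, 1 with the Y-linked covariate, 5 without WT replicates 2 and 3, 2 in the low Y-linked libraries and 0 to 8 without 1 library. The cause of these moves was not tested. None of the 76 genes reversed in direction where tested, and Men1 passed and Daxx did not under every setting run. The median over all genes, near 0 throughout, changed sign in some settings, as with quantile scaling (-0.0135).

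With the replicate number as a block, 37 genes passed in DMC against DC and 46 in MC against WT. The numbers do not pair the libraries: deviations of same-numbered DC and DMC libraries correlated at -0.187 to 0.131, 1 of 4 pairs was over 0.1, and 1 of 8 libraries correlated best with its own number. Depth limits statements on genes near 3 reads, such as Cym in DC and Obp2b in DMC.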

Other observations

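In 14 of the 76 genes the WT libraries themselves lay over 5-fold apart. Gm4737 had 33.6, 34.4, 1535 and 2004 in WT, 1166 to 2317 in DC and 14.9 to 34.6 in DMC, so WT replicates 1 and 2 lay near DMC and replicates 3 and 4 near DC. Serinc3 had 11645, 10931, 2014 and 2065 in WT, 1643 to 2078 in DC and 7871 to 10689.9 in DMC, with the same grouping of the WT libraries. The cause was not tested. Both genes were chosen after their values were seen.

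Bglap3 was at 99.00, 53.3, 62.8 and 37.3 in WT and 619, 214, 359 and 546 in MC, beside 326 to 731 in DC and 1770.4 to 4394 in DMC, so the lowest levels were in WT and the highest in DMC. Azgp1 was at 47.7, 26.2, 28.6 and 59.3 in WT and 328, 198, 289 and 102 in MC, and Iyd at 77.8, 43.4, 45.7 and 32.9 and 230.4, 225, 208 and 141.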
